A study of Homo sapiens with 6 samples.

Results

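The genes described here are 10 that choose, or are the classic product of, tissue-specific splicing: PTBP1, PTBP2, PTBP3, MBNL1, MBNL2, MBNL3, RBFOX2, CELF1, QKI and PKM. They were followed in the human embryonic kidney line HEK293A-TOA, grown without any inhibitor, after knockdown of the splicing factor SFSWAP. In the siSFSWAP group, 3 biological replicates received 40 nM of a mixture of siRNAs against SFSWAP and were collected after 5 days. In the siNT group, 3 biological replicates received a non-target siRNA. The measurements are reads across splice junctions of polyadenylated RNA, listed per library (a, b and c in each group) for alternative exons and introns. Every listed event whose gene is among the 10 was taken, which gave 214 of 153168 exon events and 19 of 21158 intron events. Of these, 142 exon events and 16 intron events had a mean of at least 20 junction reads per library, against 101163 and 12867 in the whole series. A test also needed at least 5 reads of each form over the 6 libraries, which left 78 exon events on 66 different exons, and 13 introns. PTBP2 and MBNL3 had no exon that could be tested. Of the 64 exon events with enough reads and no test, 39 had an inclusion of over 99% and 15 of under 1%. Inclusion is the share of an event's junction reads, scaled by length, that join the exon in, and it covers only the forms which that event lists.

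Polypyrimidine tract-binding proteins (PTBP1, PTBP2 and PTBP3) bind pyrimidine-rich RNA and mostly repress nearby exons. PTBP1 serves in most dividing cells and PTBP2 in neurons, and PTBP1 holds PTBP2 down by causing an exon to be skipped, which shifts the reading frame and sends the RNA to decay. Muscleblind-like proteins (MBNL1 to MBNL3), CELF1, RBFOX2 and QKI set exon choices of muscle, heart, brain and glia, and many of them also splice their own RNA. PKM, the gene of pyruvate kinase, carries 2 exons of equal length of which a transcript normally keeps only 1: exon 9 makes the M1 enzyme of muscle and brain, and exon 10 the M2 enzyme of dividing cells.

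The sequences below are the exons that the results turn on, with the exon in capitals and 20 bases of intron on each side in lower case, read 5′ to 3′ on the transcript's strand from GRCh38. The first pair are the frame-shifting 34-nt exons of PTBP1 and PTBP2, which were identical at 25 of 34 bases (73.5%). PTBP1 exon 2, of 31 nt, follows them.
PTBP1 34-nt exon, chr19:807849-807922, + strand: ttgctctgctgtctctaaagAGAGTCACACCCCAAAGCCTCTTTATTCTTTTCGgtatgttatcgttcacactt
PTBP2 34-nt exon, chr1:96806399-96806472, + strand: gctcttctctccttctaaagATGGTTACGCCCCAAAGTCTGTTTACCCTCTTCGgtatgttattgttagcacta
PTBP1 31-nt exon, chr19:799393-799463, + strand: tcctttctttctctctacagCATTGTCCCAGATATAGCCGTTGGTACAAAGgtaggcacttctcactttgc

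The 54-nt and 36-nt exons of MBNL1 and MBNL2 are shown next because the paralogs used the 36-nt exon in opposite ways. The 54-nt exons, which help to hold the protein in the nucleus, were identical at 83.3% of bases, and the 36-nt exons at 86.1%.
MBNL1 54-nt exon, chr3:152446684-152446777, + strand: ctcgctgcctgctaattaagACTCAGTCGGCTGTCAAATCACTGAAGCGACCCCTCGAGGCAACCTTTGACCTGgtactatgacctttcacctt
MBNL2 54-nt exon, chr13:97356776-97356869, + strand: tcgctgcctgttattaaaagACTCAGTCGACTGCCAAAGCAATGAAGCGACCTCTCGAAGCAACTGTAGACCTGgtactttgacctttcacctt
MBNL1 36-nt exon, chr3:152455522-152455597, + strand: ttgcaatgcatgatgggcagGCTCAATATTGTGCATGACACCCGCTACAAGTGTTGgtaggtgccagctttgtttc
MBNL2 36-nt exon, chr13:97365116-97365191, + strand: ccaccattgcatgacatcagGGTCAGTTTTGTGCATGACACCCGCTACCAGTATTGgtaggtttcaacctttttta

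PKM exons 9 and 10 lie next to each other and were identical at 105 of 167 bases (62.9%).
PKM exon 9, chr15:72203002-72203208, − strand: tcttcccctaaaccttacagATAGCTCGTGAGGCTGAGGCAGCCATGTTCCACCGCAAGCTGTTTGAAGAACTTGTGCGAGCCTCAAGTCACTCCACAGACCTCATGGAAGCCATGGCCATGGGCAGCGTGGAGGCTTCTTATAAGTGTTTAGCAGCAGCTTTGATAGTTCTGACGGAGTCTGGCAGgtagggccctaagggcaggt
PKM exon 10, chr15:72202434-72202640, − strand: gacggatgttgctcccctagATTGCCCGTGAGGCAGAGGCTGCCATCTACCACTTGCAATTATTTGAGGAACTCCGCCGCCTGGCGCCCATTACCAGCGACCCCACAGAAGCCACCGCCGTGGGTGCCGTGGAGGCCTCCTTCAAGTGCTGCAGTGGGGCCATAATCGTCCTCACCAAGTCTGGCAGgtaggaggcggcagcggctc

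Only the splice sites are shown for the 105-nt CELF1 exon, with 10 exon bases in capitals, since it lies beyond the stop codon.
CELF1 exon, 3′ splice site, chr11:47472093-47472122, − strand: gatccctgccactctcgcagGCACAGCTTG
CELF1 exon, 5′ splice site, chr11:47471978-47472007, − strand: TGGAGTTTAGgtgccatatcctgaggtttt

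The deposited tables give no group names, only numbers. Which number is siNT was taken from the sign convention in the study's methods, so SFSWAP itself was read first. SFSWAP had 79.7, 86.5 and 80.2 CPM in siNT (spliced reads of the gene in a library total scaled to 1000000) and 34.7, 34.6 and 21.3 in siSFSWAP (log2 change −1.46, limma adjusted p = 0.000353). The 6 libraries held 19515010 to 55274283 junction reads in the exon table, and the deepest was siNT a. Of the 5 markers of the HEK293 line looked for, VIM, KRT8 and KRT18 were listed, and NEFM and NEFL were not. None of the 6 markers of blood, liver or muscle cells was listed. A gene is listed only if it has an alternative exon event, so absence does not show that it is off. Values of siNT a often lay apart from those of siNT b and c among these genes, and results that depend on it are also given without it. It was singled out by these values, and whether it differs technically is not known.

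The level of each gene's RNA was read first as spliced reads in CPM, summed over its listed exons. A junction that several listed exons share counts more than once in these sums. A called change needed a Benjamini-Hochberg adjusted p of at most 0.05 in limma over 10780 genes, of which 14.7% were called higher and 15.6% lower in siSFSWAP. Of the 10 genes, 2 were called higher (MBNL3 and QKI) and 2 lower (PKM and MBNL1), which is not far from the share over all genes. The libraries of the groups did not overlap in 4 genes that were higher and 2 that were lower, against 21.8% and 23.2% of all genes. CPM is a share of a library's spliced reads, so it does not follow the number of cells. In a bulk sample, fewer cells that express a gene and less of its RNA per cell cannot be told apart.

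PKM carried the most reads and fell clearly. It had 837, 983 and 972 CPM in siNT and 624, 636 and 593 in siSFSWAP. All siSFSWAP libraries lay below all siNT libraries, at 66.4% of the siNT mean (log2 change −0.59, SE 0.08, limma adjusted p = 0.000556). MBNL3, the least abundant of the 3 muscleblind paralogs, had 2.68, 1.95 and 2.25 CPM in siNT and 3.92, 5.62 and 5.14 in siSFSWAP. The groups did not overlap, and the siSFSWAP mean was 2.13 times the siNT mean (log2 change 0.94, SE 0.19, limma adjusted p = 0.00427). It rests on only 40 to 130 reads per library over 4 listed exons, some of which overlap and share skipping reads, so distinct reads are fewer. Both calls held in every fit that left out a library.

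The calls of QKI and MBNL1 were less secure. QKI, which guides myelin and muscle transcripts, had 116, 93.2 and 98.8 CPM in siNT and 127, 125 and 135 in siSFSWAP. The groups did not overlap (log2 change 0.33, SE 0.10, limma adjusted p = 0.0220). MBNL1 had 38.5, 37.3 and 37.0 in siNT and 32.5, 27.9 and 30.8 in siSFSWAP, and again the groups did not overlap (log2 change −0.31, SE 0.10, limma adjusted p = 0.0425). Leaving out any library but siNT a moved the adjusted p of QKI to between 0.0580 and 0.107, and that of MBNL1 to between 0.0619 and 0.171.

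The repressor PTBP1 itself had 485, 529 and 495 CPM in siNT and 556, 584 and 542 in siSFSWAP. All siSFSWAP libraries were above siNT, but the change did not pass the test (log2 change 0.16, 95% interval 0.01 to 0.31, limma adjusted p = 0.102). PTBP2 differed by a log2 value of −0.02 (95% interval −0.34 to 0.30, limma adjusted p = 0.933), and PTBP3 by −0.11 (95% interval −0.35 to 0.13, limma adjusted p = 0.480). RBFOX2, which binds GCAUG elements, had 69.7, 65.0 and 66.0 in siNT and 77.2, 76.2 and 76.2 in siSFSWAP. Its groups did not overlap, with a log2 change of 0.19 (limma adjusted p = 0.104, 0.0270 without siNT a, and up to 0.269 without another library). CELF1, which binds GU-rich RNA, had 206, 258 and 256 in siNT and 197.7, 207 and 192 in siSFSWAP. Here siNT a lay among the siSFSWAP libraries. The log2 change of −0.26 missed the threshold (limma adjusted p = 0.0547) and passed it without siNT a (limma adjusted p = 0.000322). Without another library the limma adjusted p was as high as 0.209. MBNL2 differed by a log2 value of 0.06 (95% interval −0.23 to 0.35, limma adjusted p = 0.766).

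**Figure D1:**
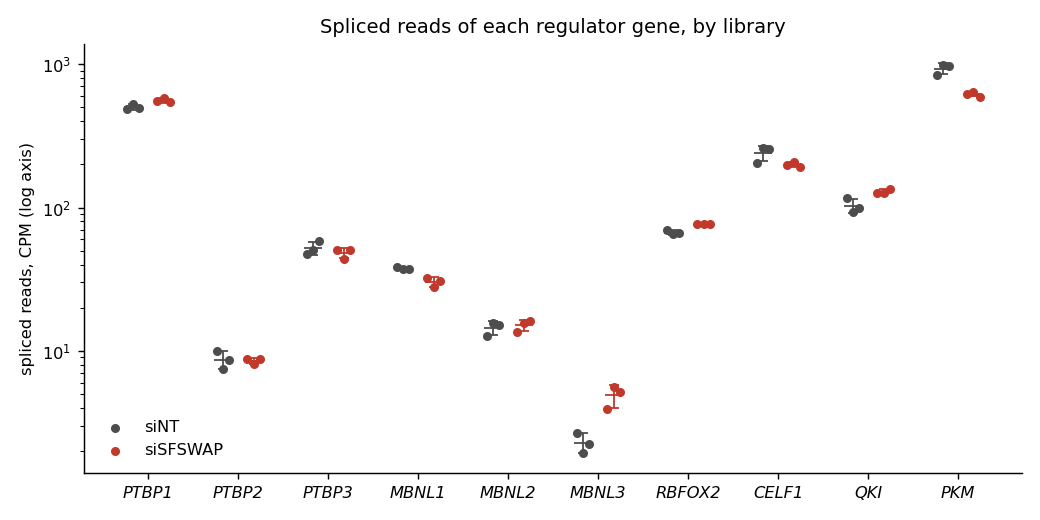
Spliced reads in CPM (log axis) of the 10 genes; points are libraries, bars the mean and SD of 3 libraries, grey siNT and red siSFSWAP. PKM fell from a mean of 931 to 618 and MBNL3 rose from 2.29 to 4.89, while the siSFSWAP means of PTBP2 and MBNL2 lay within the siNT error bars.

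To set genes beside each other, these values were divided by junction window length, in units of 100 nt, and given as a mean over the gene's exons. The mean takes in rarely used exons, and 35 exons were listed in CELF1 against 9 in QKI. The order below thus depends in part on which exons are listed. Single exons can give another order: in siNT an 80-nt CELF1 exon had 1266, 601 and 552 inclusion reads. A 117-nt QKI exon had 985, 337 and 301. On this scale the siNT level was highest for PKM (34.7 ± 2.7, SD, n = 3), then PTBP1 (15.3 ± 0.860), QKI (6.70 ± 0.790) and CELF1 (4.18 ± 0.543). RBFOX2 (2.65 ± 0.0791), PTBP3 (2.61 ± 0.283) and MBNL1 (2.52 ± 0.0534) could not be ordered beyond their spread. MBNL2 (1.18 ± 0.131) came next, and PTBP2 (0.489 ± 0.0798) and MBNL3 (0.392 ± 0.0725) were lowest, again without an order beyond their spread. In siSFSWAP the level of MBNL3 was 0.937 ± 0.20 and that of PTBP2 0.481 ± 0.0246, so that every MBNL3 library was above every PTBP2 library.

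Calls on splicing events of these genes were few, as they were over all genes. A call on an event needed an adjusted p of 0.05 or less in the quasi-binomial test together with a change of 20 points or more in mean inclusion. Over all genes, 1.44% of tested exon events were called higher and 0.655% lower in siSFSWAP. Of the 78 exon events of the 10 genes, 1 was called higher and 0 lower, which is not far from those shares. Only 28 of the 78 had a mean siNT inclusion between 5% and 95%, so most could move by 20 points in 1 direction only. At the adjusted p alone, 1 passed as higher and 2 as lower, against 3.25% and 2.17% of all events. The median change was −0.02 points against 0.30 over all tested events, and the median size of a change was 1.56 points against 1.97. Libraries of the groups did not overlap in 4 events that were higher and 15 that were lower, against 14.2% and 9.03% of all events. QKI gave 6 of the 15, and several of these are overlapping exons. Of the introns, 1.61% were called lower and 0.148% higher over all genes, and 0 of the 13 introns of these genes were called in either direction. None passed the adjusted p alone, against 2.86% lower and 0.364% higher over all genes. Retention did not overlap between the groups in 1 intron that was lower and 1 that was higher, against 15.3% and 6.02% of all introns. Their median change was −0.63 points against −0.52 over all introns.

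**Figure D2:**
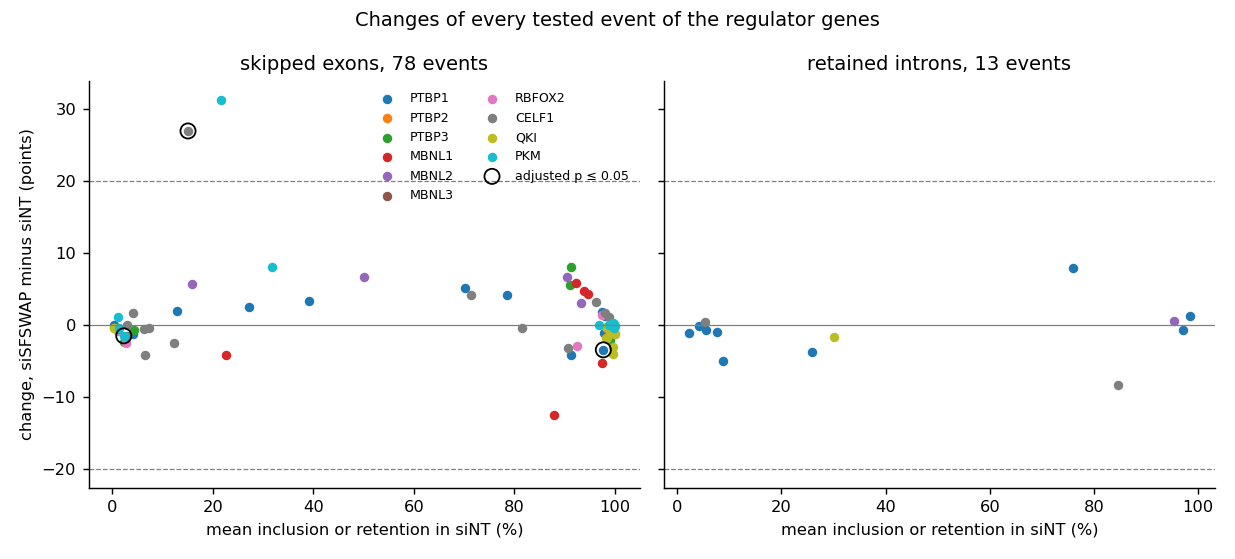
Change in inclusion or retention (siSFSWAP minus siNT, in points) against the siNT mean, for 78 exon events (left) and 13 introns (right); colours are genes, dashed lines 20 points, open circles an adjusted p of at most 0.05. All but 3 exon events lie within 10 points of 0: MBNL1 at −12.45, and the CELF1 exon event at 26.9 points (circled) and a PKM event at 31.3 points, which rests on 27 reads per library.

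The called event lies in CELF1, at chr11:47471998-47472102, on the part of the gene after the stop codon. The annotation (GENCODE 44) lists this 105-nt exon, though not in the gene's reference transcript. Inclusion was 28.6%, 10.1% and 6.57% in siNT and 50%, 32.1% and 43.9% in siSFSWAP. All siSFSWAP libraries were above siNT, with siNT a nearest to them. The mean rose by 26.9 points (SE 8.62, quasi-binomial adjusted p = 0.0158). The reads behind it were 57, 15 and 9 for inclusion and 71, 67 and 64 for skipping in siNT, and 44, 18 and 25 for inclusion and 22, 19 and 16 for skipping in siSFSWAP. The call was lost when siNT b (adjusted p = 0.106), siNT c (0.0608), siSFSWAP a (0.244) or siSFSWAP c (0.108) was left out, and in limma on the log2 odds (adjusted p = 0.0897).

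A closer look at the junctions changes what this event measures. The inclusion reads equalled, in each of the 6 libraries, the reads spliced over the neighbouring 88-nt intron (chr11:47472103-47472190), 168 in all. That leaves 0 reads for the junction at the other end of the exon. Scaling by the length of both junctions thus understates the inclusion values above in every library. The event is therefore a choice between the splice over the 88-nt intron and a longer splice within the same 3′ untranslated region, and the 105-nt exon as a whole was not seen. In CPM, the longer splice had 1.46, 3.26 and 3.51 reads in siNT and 0.785, 1.11 and 0.822 in siSFSWAP, so that every siSFSWAP library was lower. The splice over the 88-nt intron had 1.18, 0.730 and 0.493 in siNT and 1.57, 1.05 and 1.28 in siSFSWAP, where the groups overlapped. Retention of the 88-nt intron against its own splice was 74.8%, 88% and 91.0% in siNT and 71.3%, 81.5% and 76.1% in siSFSWAP. This intron, named after its values were seen, shares its spliced reads with the exon event, so it is no separate evidence. Its change of −8.32 points did not pass the test (quasi-binomial adjusted p = 0.541, 0.00194 without siNT a, and up to 0.879 without another library). That measure leaves out RNA in which the longer splice removes the intron, and its direction turns when those reads are counted. Of all 3 forms, scaled by length, the intron was then kept in 57.0%, 57.3% and 55.4% in siNT and 62.3%, 68.2% and 66.0% in siSFSWAP. The longer splice made up 23.9%, 34.9% and 39.1% in siNT and 12.6%, 16.3% and 13.3% in siSFSWAP. These shares were worked out after the values were seen and carry no test.

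**Figure D3:**
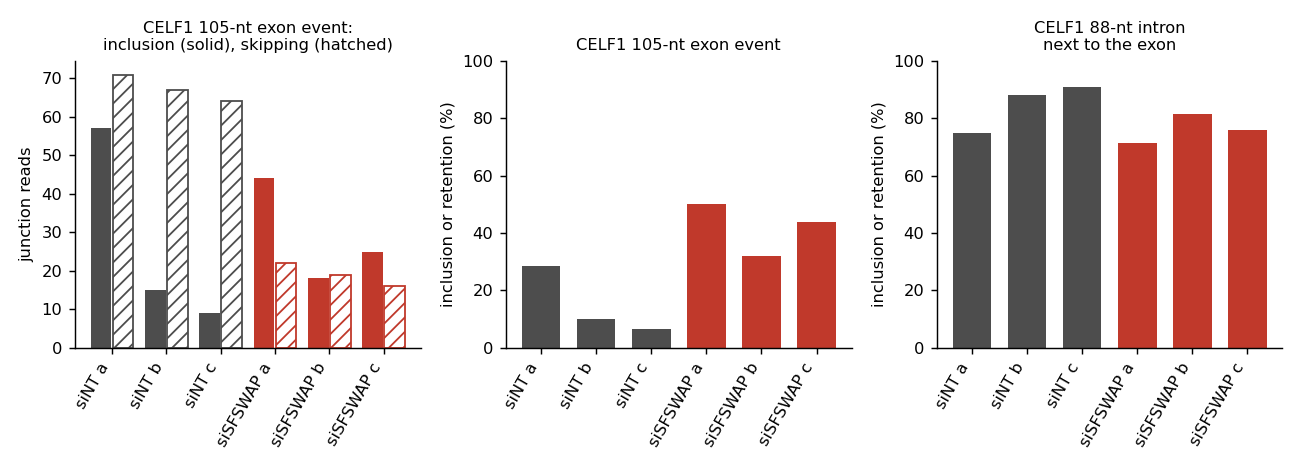
The CELF1 event by library: junction reads (left, solid for inclusion and hatched for skipping), inclusion (middle) and retention of the neighbouring 88-nt intron against its own splice only (right), both in percent; grey is siNT and red siSFSWAP. Skipping reads were 64 to 71 in siNT and 16 to 22 in siSFSWAP, and siNT a had the highest inclusion of its group (28.6%). Scaling by the length of both junctions understates the inclusion drawn.

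PTBP1 controls its own amount through its 34-nt exon, whose skipping shifts the frame, as in PTBP2. Since such skipped RNA is prone to decay, inclusion in the RNA that remains can overstate how often the exon was spliced in. Decay was not measured here. In PTBP1 this exon (exon 11 of 15, chr19:807869-807902) was included at 98.0%, 97.9% and 97.9% in siNT and 97.5%, 96.6% and 96.5% in siSFSWAP. The siSFSWAP libraries were all lower, by 1.05 points in the mean, which did not pass the test (SE 0.331, quasi-binomial adjusted p = 0.266). In PTBP2 the 34-nt exon (exon 10 of 14, chr1:96806419-96806452) had a mean of 18.2 reads per library and was not tested. It had 8, 4 and 8 inclusion reads against 23, 7 and 5 skipping reads in siNT, and 9, 2 and 1 against 20, 11 and 11 in siSFSWAP. The inclusion values, 20.6% to 54.4% in siNT and 6.34% to 25.1% in siSFSWAP, overlapped, and this depth could not show a difference between the groups. The 34-nt exon of PTBP3 shares only its length with them: it lies outside the coding span, was identical to that of PTBP1 at 17.6% of bases, and was included in 2.21% to 6.77% of its event's reads, scaled by length, over all libraries.

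PTBP1 exon 2, the 31-nt exon printed above, had the smallest adjusted p of the 78 events. It was named after its values were seen. Inclusion was 97.8%, 97.3% and 98.0% in siNT and 95.2%, 94.2% and 93.4% in siSFSWAP. All siSFSWAP libraries were lower, and the fall of 3.44 points (SE 0.566, quasi-binomial adjusted p = 0.00924) stayed below the 20 points a call needs. The adjusted p was 0.060 without siSFSWAP b, 0.0747 without siSFSWAP c and 0.324 in limma on the log2 odds. Exon 9 of PTBP1, a 78-nt in-frame exon whose use changes the strength of repression, was included at 84.7%, 75.4% and 75.8% in siNT and 86.5%, 83.0% and 78.7% in siSFSWAP. The groups overlapped through siNT a (change 4.13 points, quasi-binomial adjusted p = 0.502, 0.00326 without siNT a, and up to 0.976 without another library). Intron 4 of PTBP1, of 83 nt, was retained at 22.7%, 26.7% and 28.4% in siNT and 21.2%, 21.9% and 23.4% in siSFSWAP. Here too the groups overlapped through siNT a (change −3.78 points, quasi-binomial adjusted p = 0.345, 0.00119 without siNT a, and up to 0.701 without another library).

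PTBP3 exon 3, of 170 nt, is listed against 2 ends of the exon before it. Against the end with more reads it was included at 86.5%, 91.8% and 95.3% in siNT and 98.0%, 100% and 100% in siSFSWAP. All siSFSWAP libraries were higher, by 8.10 points in the mean (SE 2.65), which did not pass the test (quasi-binomial adjusted p = 0.0735). Against the other end the values were 92.6%, 86.0% and 94.3% in siNT and 89.7%, 100% and 100% in siSFSWAP, and the groups overlapped (quasi-binomial adjusted p = 0.602).

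Among the tested events of the muscleblind genes, the 36-nt exon of MBNL1 had the widest difference. It was included at 88.3%, 82.5% and 92.7% in siNT and 77.3%, 69.5% and 79.4% in siSFSWAP. The siSFSWAP libraries all lay below siNT, yet the change of −12.45 points did not pass the test (SE 4.2, quasi-binomial adjusted p = 0.174) on 3 to 14 skipping reads per library. The reads of MBNL2 almost all skipped its own 36-nt exon, with 1 inclusion read over all libraries against 30 to 63 skipping reads in each, so that it could not be tested. The 54-nt exon was included at 89.7% to 96.2% in siNT in MBNL1 and at 43.1% to 57.1% in MBNL2. In siSFSWAP the values were 94.2% to 100% and 52.2% to 59.0%, and neither change (5.81 and 6.60 points) passed the quasi-binomial test (adjusted p = 0.521 and 0.525). The 95-nt exon changed by −1.63 points in MBNL1 and by 3.05 points in MBNL2 (quasi-binomial adjusted p = 0.629 and 0.718).

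RBFOX2 has a 40-nt exon known from brain and a 43-nt exon known from muscle, close to each other. These cells used the former, at 93.8%, 94.7% and 88.9% in siNT and 92.7%, 90.0% and 86.0% in siSFSWAP, and the groups overlapped (change −2.90 points, quasi-binomial adjusted p = 0.599). The 43-nt exon was included at 2.13%, 1.60% and 4.64% in siNT and 0.875%, 0% and 0% in siSFSWAP, on 3 or fewer inclusion reads per library (quasi-binomial adjusted p = 0.264). The 93-nt exon, which encodes part of the RNA-binding domain, was skipped by 1 read in siNT and 2 reads in siSFSWAP.

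The 152-nt exon of CELF1 near its start codon was read against 2 upstream exons. Against the one with most reads it was included at 10.2% to 13.9% in siNT and 7.01% to 14.6% in siSFSWAP (change −2.52 points, quasi-binomial adjusted p = 0.778). Against a 72-nt exon just before it, inclusion was 78.3% to 87.3% in siNT and 77.8% to 84.0% in siSFSWAP (quasi-binomial adjusted p = 0.947). Intron 5 of CELF1 was retained at 4.42% to 5.83% in siNT and 5.49% to 5.88% in siSFSWAP (quasi-binomial adjusted p = 0.876). QKI makes proteins that differ in their last residues, and an 850-nt exon is listed in that end of the gene (chr6:163565946-163566795). Its inclusion reads were 68 at its own upstream junction and 1382 at its downstream junction, which a 75-nt exon inside it shares. The event therefore mostly measures the downstream junction and not use of the whole 850-nt exon. Its values were 100%, 100% and 98.8% in siNT and 95.7%, 95.7% and 95.4% in siSFSWAP. All siSFSWAP libraries were lower, with 4 to 7 skipping reads each against 0 or 1 in siNT. The change of −3.98 points lay just outside the threshold on p (quasi-binomial adjusted p = 0.0527, and 0.0428 to 0.147 with a library left out). The 75-nt exon, with the same skipping reads, had a quasi-binomial adjusted p of 0.0602.

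PKM was spliced mostly to the M2 form in every library. Against the splice that skips both exons, which had 0 to 5 reads per library, exon 10 was at 99.7% to 99.9% in siNT and 99.8% to 100% in siSFSWAP (quasi-binomial adjusted p = 0.531). That event does not count M1 transcripts. Exon 9, measured against the direct splice of exon 8 to exon 10, had 155, 143 and 118 inclusion reads against 5765, 2386 and 2121 skipping reads in siNT. In siSFSWAP it had 31, 32 and 20 against 2403, 1377 and 1466. Inclusion scaled by length was 1.33%, 2.91% and 2.71% in siNT and 0.641%, 1.15% and 0.678% in siSFSWAP. All siSFSWAP libraries were lower, and the change of −1.49 points (SE 0.523, quasi-binomial adjusted p = 0.0130) passed the threshold on p while far below 20 points. The adjusted p was 0.10 or more when siNT b, siSFSWAP a or siSFSWAP c was left out, 0.0533 without siNT c, and 0.258 in limma on the log2 odds. Nearly all of these inclusion reads lay on the exon 8 to exon 9 junction, so scaling by the length of both junctions understates exon 9. Of splices leaving exon 8, exon 9 took 2.62%, 5.47% and 5.14% in siNT and 1.23%, 2.27% and 1.35% in siSFSWAP. Of splices into exon 11, those from exon 9 made up 5.12%, 6.60% and 6.81% in siNT and 2.37%, 2.03% and 1.74% in siSFSWAP. On both sides every siSFSWAP library was lower, and these shares, worked out after the values were seen, carry no test. A 117-nt exon near the 5′ end of PKM is listed against 5 upstream exons, 3 of them tested, and most of its inclusion reads are shared between them. Against the one with most reads (a mean of 518.5 per library) it was at 0.933%, 1.74% and 1.28% in siNT and 1.36%, 1.04% and 0.338% in siSFSWAP (quasi-binomial adjusted p = 0.779). Against another it changed by 8.05 points (quasi-binomial adjusted p = 0.737). Against the third it changed by 31.3 points on a mean of 27.3 reads, with values of 22.9%, 26.5% and 15.6% in siNT and 35.7%, 100% and 23.1% in siSFSWAP (quasi-binomial adjusted p = 0.304). The value of 100% came from 6 reads.

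**Figure D4:**
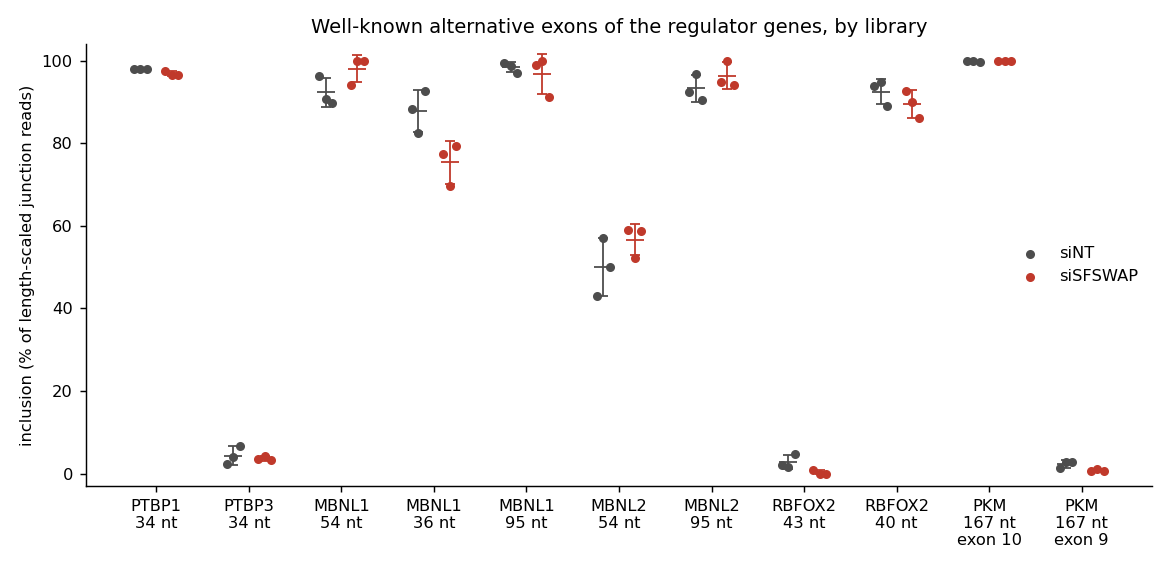
Inclusion in percent of well-known alternative exons by library; points are libraries, bars the mean and SD of 3 libraries, grey siNT and red siSFSWAP. Among these tested exons the 36-nt exon of MBNL1 has the widest gap (87.9% to 75.4%); PKM exon 10 is drawn against the splice that skips both PKM exons, and exon 9 against the exon 8 to exon 10 splice.

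The exons were also read for letters that these proteins bind, in 100 intron bases on either side and on the transcript's strand. TGCATG, the RBFOX element, stood downstream of 7 of 66 exons (10.6%) and upstream of 5 (7.58%), against 3.16% and 2.67% of the 43370 different exons tested in all genes. Several of the 66 exons share windows, such as 3 overlapping exons at PTBP1 exon 9. CTCTCT, a PTB element, stood upstream of 5 (7.58%, against 7.14%), among them PTBP1 exon 2 and PKM exon 9, and downstream of 0, against 4.26%. TGTGT, a CELF element, stood upstream of 16.7% (against 19.0%) and downstream of 12.1% (against 17.2%). TGCTT, an MBNL element, stood upstream of 15.2% (against 17.9%) and downstream of 19.7% (against 15.3%). ACTAAC, the QKI element, stood upstream of 2 exons (3.03%, against 1.22%) and downstream of 1 (1.52%, against 1.02%). A length divisible by 3 was found in 53.0% of the 66 exons and 39.0% of all. These are matches of letters only.

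Other regulators of tissue-restricted splicing were read from a list of 31 genes, of which 14 had tested exons. Of their 116 exon events, 0 were called higher and 4 lower, against 1.44% and 0.655% of all events. TIAL1, which binds U-rich RNA, had a 99-nt exon included at 98.2%, 97.1% and 96.1% in siNT and 78.3%, 74.2% and 71.5% in siSFSWAP (quasi-binomial adjusted p = 4.7e-07). A 150-nt form of the same exon was also called, on the same skipping reads in every library, so it is no separate evidence. RBM38 had a 55-nt exon at 87.2%, 78.2% and 84.3% in siNT and 65.6%, 57.5% and 54.6% in siSFSWAP (quasi-binomial adjusted p = 3.3e-05). A 10-nt exon of MATR3 that the annotation does not list was called as well (change −25.2 points). The 1339-nt intron around it was also called (−23.5 points). Both share the same skipping reads in every library, so they are no separate evidence. In spliced reads, 3 genes of the list were called higher (RALY, RAVER1 and RBM20) and 1 lower (MSI1), of 15 tested, against 14.7% and 15.6% of all genes. RAVER1, a partner of PTBP1, had a log2 change of 0.36 (limma adjusted p = 0.00916).

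Well-known target genes of these regulators formed a list of 18, of which 16 had tested exons. Of their 88 exon events, 0 were called higher and 4 lower, against the same shares of all events (1.44% and 0.655%). Exon 6 of FAS, which decides between the membrane and the soluble receptor, was included at 74.5%, 78.6% and 67.7% in siNT and 49.5%, 46.1% and 49.4% in siSFSWAP (quasi-binomial adjusted p = 0.0124). A 109-nt exon of MAP3K7 was included at 84.4%, 89.4% and 83.8% in siNT and 64.6%, 38.3% and 50% in siSFSWAP (quasi-binomial adjusted p = 0.000668). The other calls were overlapping exons of RTN4 of 28 and 67 nt. The annotation lists exon 6 of FAS, but neither the MAP3K7 exon nor the RTN4 exons. Calls in MAP3K7 and RTN4 are thus not at annotated exons of these genes. In spliced reads, TPM1 and NUMA1 were called higher and RTN4, ENAH and BIN1 lower, of 17 tested, against 14.7% and 15.6% of all genes.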

How the data were processed

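Polyadenylated RNA of 6 libraries, 3 siNT and 3 siSFSWAP, was sequenced from 1 end with reads of 100 bases. Per the labels and the study's methods, the authors used cutadapt 1.9.1 for trimming and STAR 2.7 for alignment to GRCh38, and listed events with rMATS 4.3.0. The deposited tables hold whole-number counts of junction reads, without normalisation, and effective lengths in nucleotides. Whether libraries were stranded is not stated in the sources used here. Columns of the authors' own p-values, FDR, inclusion levels and inclusion differences were not used.

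Inclusion was computed from counts divided by effective lengths. The test of an event was a quasi-binomial F test, two-sided, on its counts, with dispersion moderated across events by limma 3.58.1 in R 4.3.3 (trend on depth) and floored at 1. Spliced reads per gene took 1 event per exon, genes averaging 20 reads or more per library, and limma-trend on log2(CPM + 0.5), a scale that understates changes of low genes. P-values were adjusted by Benjamini-Hochberg over each whole table. Exon positions come from GENCODE 44. The libraries carry no replicate numbers in the tables, and p-values measure the spread between them.

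The tests were tried on simulated data. The changed exons had intermediate inclusion, more reads than the filter asks, and a change larger than a call needs. Exons that are almost always kept or skipped, and small changes, were not tried. The exon test found most changed exons when each event's overdispersion was taken from the real data. It found almost none when a single overdispersion was set for all exons, a setting that left far less shared information between events than the real tables have. The simulation was changed to the former after the latter was seen, and the test itself was not changed. An exon that misses the threshold is therefore not shown to be unchanged.

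Named events were called exons or introns, the event with most reads in each gene among those of intermediate inclusion, well-known exons found by length, and the QKI and CELF1 exons with the largest change. The genes and lists were chosen with earlier results of these data known.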

Additional observations from a re-analysis of the deposited data

How the results depend on the processing

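No paired analysis was possible because the count columns carry no replicate numbers. The planned edgeR and DESeq2 fits were not run. With a library left out, the exon events called in the 10 genes ranged from 0 to 1 as higher and stayed at 0 as lower. With all libraries, limma on the log2 odds called 0 of them. Over all genes, leaving out a library moved exons called higher (692) to between 166 and 1513 and those called lower (315) to between 134 and 354. It moved introns called higher (15) to between 1 and 44 and lower (163) to between 14 and 498. The highest of each of these 4 counts came without siNT a. In spliced reads with a library left out, 1 to 3 of the 10 genes were called higher and 1 to 3 lower. Over all genes 898 to 2461 were then higher and 889 to 2590 lower. A minimum of 50 reads left 429 exons called higher, and 7 introns higher and 107 lower. Limma on the log2 odds called 177 exons higher and 94 lower, and 0 introns in either direction. A threshold of 10 points in place of 20 called 1124 exons higher and 652 lower, and 248 introns lower. CELF1 spliced reads passed the threshold with all events summed (limma adjusted p = 0.0496) and with TMM scaling (0.0475). Deviance dispersion was added after seeing the data and moved no count by more than 1.5 times. Of the values that did not pass a test, 6 changed sign in a fit that left out a library, and none of these passed the threshold there: the PTBP3 34-nt exon, the MBNL1 95-nt exon, a CELF1 and a QKI intron, and the spliced reads of PTBP2 and MBNL2. No called value changed sign. TMM moved the median log2 change of all genes from −0.0047 to −0.012. Depth limits events such as the PTBP2 34-nt exon, at 18.2 reads per library.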
